A study of Mus musculus with 4 samples.

Results

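Ribosome biogenesis is the building of new ribosomes, and 40 genes of this process and of RNA polymerase I were described in mouse leukemic blasts. The 40 were chosen by name as known ribosome assembly factors, nucleolar proteins and components of RNA polymerase I transcription. Earlier results of these data were known at that choice. A gene was measured if the platform annotation paired at least 1 probe set with it alone, which held for 39 of the 40, among 18193 genes with such a probe set on the array. These 39 had 77 of the 45101 probe sets, and 25 of them had more than 1. The only probe set listed for the remaining gene, Mrto4, was also paired with other genes, so Mrto4 has no value here. Where a gene had several, the brightest on average stands for it.

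The cells were GFP+ blasts of a murine M7 leukemia, the megakaryoblastic type. The leukemia came from retroviral insertional mutagenesis of fetal progenitors with a mutant Gata1, called Gata1s in the series title, and the retrovirus carried the GFP reporter used for sorting. Blasts came straight from the peripheral blood and the spleen of 2 mice without culture or treatment, which gave 4 arrays, 2 per tissue. Blood and spleen cells of both mice share the mutant Gata1 origin, the retroviral tag and the designation T6(6), and the labels name no cells without the mutation for comparison. Whether T6(6) is a single clone, and the strain and age of the mice, are not given in the sources used here.

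Ribosome production starts in the nucleolus, where RNA polymerase I transcribes the long precursor of the ribosomal RNAs. Small nucleolar ribonucleoproteins (RNPs) then guide the chemical modification of this precursor, the small subunit processome cuts and folds its first part, and a separate set of factors assembles the large subunit. Growing and dividing cells, leukemic blasts included, need a high rate of this process, and the transcription factor Myc is a known activator of many of its genes.

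Array values are linear intensities of probe sets. Differences are on the scale log2(intensity + 16), with values below 0 set to 0, and are always spleen minus blood unless stated. Errors of differences are standard errors (SE) of a limma fit with 2 arrays per tissue, and adjusted p-values are Benjamini-Hochberg values over the 11614 tested genes. Genes were tested if their mean log2(intensity + 16) reached the median of all probe sets, a cut that equals an intensity of 106. The 4 array medians lay between 103.7 and 110.6, and 4 arrays allow only limited precision. Of 8 listed megakaryocyte and platelet markers 7 were matched and 6 tested. Pf4, a platelet granule chemokine, lay between 7507 and 8680.4, and Itga2b, a platelet integrin chain, between 4237 and 4989.7. Gp6, the platelet collagen receptor, lay between 174 and 240.4, and Itgb3, the partner chain of Itga2b, had a probe set below the filter, between -4.2 and 122.6. The summed intensity of the 7 was 14793 and 14903 in blood and 16464 and 17764 in spleen of mice 1 and 2. Gp1bb and Ppbp had the highest differences among the 6, 1.06 ± 0.16 and 0.99 ± 0.20 (SE), and passed no adjusted threshold. Among markers of other cells, the sums for granulocytes, macrophages, and T and NK cells moved with tissue or mouse. Those of B cell and erythroid markers moved less. The summed intensity of 7 granulocyte markers was 5970.0 and 15541 in blood and 3344 and 684 in spleen of mice 1 and 2. That of 7 macrophage markers was 1124 and 2971 in blood and 1606 and 795 in spleen, with C1qa below 0 on 3 arrays. That of 6 T and NK markers was 5928 and 8330.0 in blood and 7060.0 and 4347 in spleen. This sum moved mainly with Gzma, at 1337.6 and 3485.5 in blood and 2757.2 and 170.7 in spleen. Nkg7 lay between 3556.5 and 4159.2, and no other of the 6 exceeded 321.8. The sum of 5 B cell markers lay between 445 and 561 on all arrays, and that of 4 erythroid markers between 3333 and 3766. Only 1 of the 5 B cell markers reached the filter, Pax5, at 250 to 350. Of the erythroid markers Alas2 lay below it, between 13.8 and 37.3. The part of these cells in the values below was not tested. In such bulk samples fewer cells of a type and less RNA per cell cannot be told apart.

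All 39 measured genes were above the brightness filter, with mean intensities from 194.7 for Polr1b to 6810.4 for Npm1. Probes differ in brightness, so these levels do not rank the genes. Mean intensities reached 1000 for 22 of the 39. Levels were even over the arrays. The brightest array exceeded the dimmest by a factor between 1.06 and 1.56, with a median factor of 1.19. The SD over the 4 arrays had a median of 0.11 on the log2 scale, beside 0.15 for all tested genes, which were not matched for brightness.

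**Figure D1:**
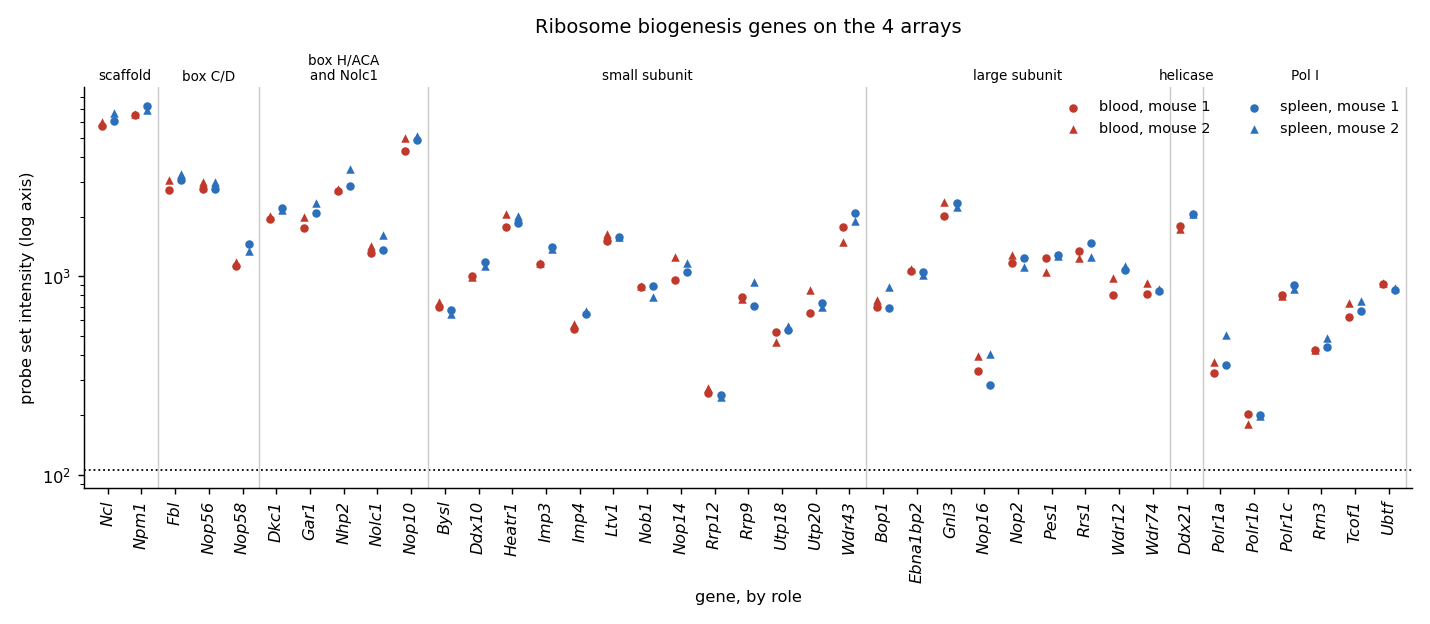
Probe set intensity (log axis) of the 39 measured ribosome biogenesis genes on the 4 arrays, grouped by role and ordered by name, with blood in red, spleen in blue, circles for mouse 1 and triangles for mouse 2. The dotted line marks the filter at 106, all genes lie above it, and the 4 points of a gene lie within a factor of 1.56.

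The comparison asked whether blasts in the spleen differed from blasts in the blood in these genes. No gene passed the test. With limma 0 of 39 had an adjusted p under 0.05, and the adjusted p ran from 0.415 to 0.989. The test called 0.0% of all 11614 tested genes, and the smallest adjusted p among these was 0.14. At an unadjusted p under 0.05 there were 0 of the 39 in either direction, beside 8.12% of all tested genes higher and 4.31% lower in spleen. Fitted differences ran from -0.13 for Bysl to 0.30 for Wdr12, and the median of the 39 was 0.11, beside 0.03 for all tested genes. The median was 0.09 in mouse 1 and 0.11 in mouse 2.

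The sign of these small differences was more often positive. Spleen exceeded blood in both mice for 23 of the 39 genes, beside 38.5% of all tested genes, and lay below it in both for 4, beside 25.1%. The other 12 differed in direction between the mice. Both spleen arrays lay above both blood arrays for 16 genes, beside 27.5% of all tested genes, and below them for 4, beside 17.6%. The deposited scaling mattered for these counts. With quantile normalization 15 were higher in both mice and 10 lower, beside 3990.0 and 3553 of all tested genes, and the median of the 39 was 0.06, beside 0.007 for all tested genes. With every array centred on its median 27 were higher and 2 lower, beside 5483 and 2277 of all tested genes, and the median was 0.15, beside 0.07 for all tested genes. Without spleen replicate 2 the median was 0.05. The 39 genes were chosen as a group, with earlier results of these data known, and share arrays, so these counts have no test.

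The interval of each difference shows how large a change the arrays leave room for in the chosen probe set. Differences between probe sets of a gene are not part of it. The Ncl interval ran from -0.18 to 0.39, while its other probe sets above the filter differed by -0.11, 0.51 and 0.42. The 95% interval lay within 1.5-fold either way for 36 of the 39 genes, beside 72.7% of all tested genes, and within 2-fold for all 39. The 3 exceptions were Wdr12, with an interval from -0.04 to 0.64, Wdr43, from -0.05 to 0.62, and Polr1a, from -0.17 to 0.73. A difference of 2-fold or more with the same sign in each mouse occurred for 0 of the 39 genes, beside 0.164% of all tested genes.

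**Figure D2:**
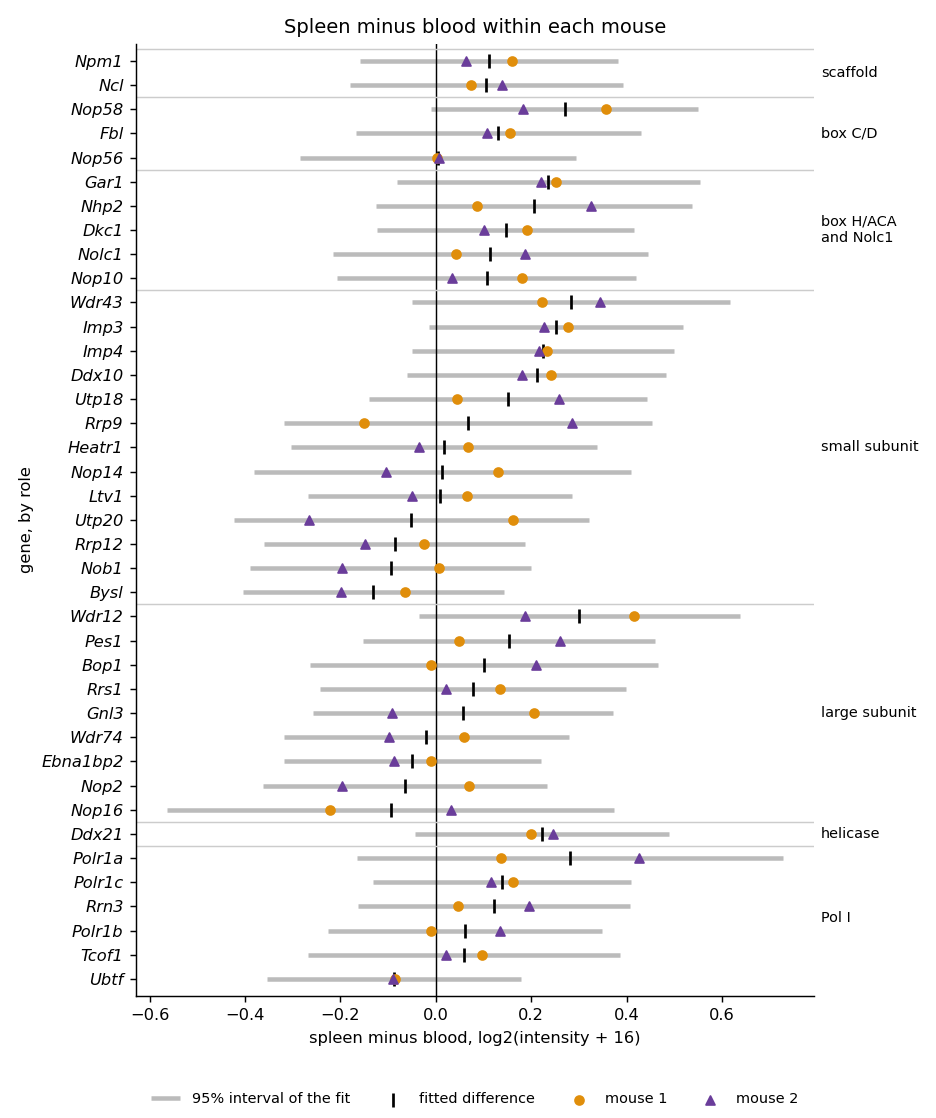
Spleen minus blood on the log2(intensity + 16) scale for the 39 genes by role, with circles for mouse 1, triangles for mouse 2, ticks for the fitted difference and grey bars for its 95% interval. Every interval includes 0, and fitted differences run from -0.13 for Bysl to 0.30 for Wdr12.

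RNA polymerase I and its factors start the pathway. Of 6 genes, 4 had more signal in spleen in each mouse, 1 was lower in both and 1 differed between the mice, with a median difference of 0.09, or 0.05 without spleen replicate 2. Counts of this and the following roles stand against 38.5% of all tested genes higher in both mice and 25.1% lower. With so few genes per role, none was set apart from these shares by a test. Polr1a encodes the largest catalytic subunit. Its intensities were 324 and 371 in blood and 358 and 504 in spleen of mice 1 and 2, so spleen of mouse 2 was the high array and the tissues overlapped. The difference was 0.28 ± 0.18 (SE, 2 arrays per tissue; adjusted p = 0.568). The 2 other Polr1a probe sets above the filter differed by 0.34 and -0.03. Polr1b, the second catalytic subunit, had 201 and 179 in blood and 199.8 and 198 in spleen, with blood of mouse 2 lowest and the tissues overlapping. Its difference was 0.06 ± 0.12. Polr1c, a subunit shared with RNA polymerase III, had 804 and 792 in blood and 901 and 860.0 in spleen. The spleen arrays lay above the blood arrays, by 0.14 ± 0.11 (adjusted p = 0.638).

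Ubtf, the upstream binding factor that coats active ribosomal DNA, was the one member of this role lower in spleen in both mice. Its intensities were 910.2 and 925 in blood and 857 and 868 in spleen, with no overlap, and the difference was -0.09 ± 0.11 (adjusted p = 0.777). A dimmer Ubtf probe set, with a mean intensity of 183.5, differed by 0.10 over the mice, and with the mean of both probe sets the difference was 0.008. Rrn3 links RNA polymerase I to the promoter for initiation. Blood gave 423 on both arrays and spleen gave 438 and 486, so the tissues did not overlap, with a difference of 0.12 ± 0.12 (adjusted p = 0.702). Tcof1, or treacle, is a nucleolar phosphoprotein needed for ribosomal RNA transcription and altered in Treacher Collins syndrome. Its values were 626 and 736 in blood and 671 and 747 in spleen. Both tissues of mouse 2 lay above both of mouse 1, and the tissue difference was 0.06 ± 0.13.

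Promoter sequences of the members were searched because Myc binds the E-box CACGTG. RefSeq windows of mouse build GRCm38.p6, from 250 bases before to 50 bases after a gene's start, were available for 33 of the 39 genes. CACGTG, which reads the same on both strands, occurred in 8 of the 33 (24.2%), beside 11.5% of 9406 tested genes with a window and 7.15% of all 32851 windows. The 8 genes were Rrn3, Imp4, Utp18, Nop2, Wdr43, Pes1, Ltv1 and Utp20. Both spleen arrays lay above both blood arrays for 5 of these 8, beside 16 of all 39 members and 27.5% of all tested genes. The 5 were Rrn3, Imp4, Utp18, Wdr43 and Pes1, and the mice differed in direction for Nop2, Ltv1 and Utp20. This count of few genes was not tested, and another Wdr43 probe set differed by -0.02. An ETS-type motif, CCGGAAG on either strand, occurred in 12 of the 33 (36.4%), beside 19.4% of tested genes and 8.86% of all windows. The GC box GGGCGG, also searched on both strands, occurred in 24 (72.7%), beside 65.0% of tested genes and 35.7% of all windows. Matches of different motifs were counted separately, also where they might share bases, and a match is not a measured binding site. The 250 bases before the start are shown for the 4 genes that hold the E-box there, with the E-box in capitals, 5′ to 3′ on the gene's strand.
Rrn3, chr16:13780449-13780698, plus strand: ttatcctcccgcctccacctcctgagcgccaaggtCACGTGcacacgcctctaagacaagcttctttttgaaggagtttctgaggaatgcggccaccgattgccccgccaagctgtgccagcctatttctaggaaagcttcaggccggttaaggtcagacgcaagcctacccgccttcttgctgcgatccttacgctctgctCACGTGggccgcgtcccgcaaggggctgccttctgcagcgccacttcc
Imp4, chr1:34439579-34439828, plus strand: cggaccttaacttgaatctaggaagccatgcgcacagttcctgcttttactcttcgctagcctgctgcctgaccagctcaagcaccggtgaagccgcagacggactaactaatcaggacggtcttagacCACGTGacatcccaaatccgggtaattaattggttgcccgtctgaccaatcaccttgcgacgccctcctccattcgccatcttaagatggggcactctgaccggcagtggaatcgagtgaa
Utp18, chr11:93885767-93886016, minus strand: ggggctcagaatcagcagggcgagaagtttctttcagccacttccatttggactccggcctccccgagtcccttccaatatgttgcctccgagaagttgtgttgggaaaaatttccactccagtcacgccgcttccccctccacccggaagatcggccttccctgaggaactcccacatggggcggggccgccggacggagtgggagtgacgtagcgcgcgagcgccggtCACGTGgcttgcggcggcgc
Nop2, chr6:125131633-125131882, plus strand: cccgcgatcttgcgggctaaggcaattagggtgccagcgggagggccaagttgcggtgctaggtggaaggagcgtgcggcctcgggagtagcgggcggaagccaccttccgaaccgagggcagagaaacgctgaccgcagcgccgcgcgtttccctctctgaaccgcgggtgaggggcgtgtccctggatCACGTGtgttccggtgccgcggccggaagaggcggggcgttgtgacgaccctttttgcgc
Rrn3 holds 2 E-boxes, whose first bases lie 215 and 48 bases before the start, and the other 3 genes hold 1 each, 121 bases before the start in Imp4, 20 in Utp18 and 60 in Nop2. In Pes1, Wdr43, Ltv1 and Utp20 the motif begins at base 3, 18, 29 and 38 of the transcribed part. Myc itself had intensities of 2581 and 2922 in blood and 2885 and 2821.5 in spleen, overlapping between tissues, with a difference of 0.05 ± 0.12 (SE; adjusted p = 0.882).

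Nucleolar scaffold proteins were the next role. Ncl encodes nucleolin, which binds the ribosomal RNA precursor. Its brightest probe set read 5727 and 6011 in blood and 6027 and 6620.2 in spleen, with spleen above blood in both mice and no overlap, and a difference of 0.11 ± 0.12 (adjusted p = 0.744). Npm1, nucleophosmin, is a nucleolar chaperone that is often mutated in human myeloid leukemia. It read 6491 and 6599 in blood and 7256 and 6896 in spleen, also without overlap, and differed by 0.11 ± 0.11 (adjusted p = 0.713).

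The core proteins of box C/D small nucleolar RNPs, which guide methylation of ribose, had a positive difference in each mouse for 3 of 3 genes. The share of all tested genes was 38.5%. The median difference of the 3 was 0.13. With quantile normalization 2 of 3 were higher in both mice and 1 was lower, with a median of 0.07. The median was 0.05 without blood replicate 1, 0.08 without spleen replicate 2 and 0.21 without blood replicate 2. Fbl, fibrillarin, is the methyltransferase of the complex. Its intensities were 2735 and 3055 in blood and 3047 and 3293 in spleen, where blood of mouse 1 was lowest and the tissues overlapped by a small margin. The difference was 0.13 ± 0.12. Nop58 and Nop56 are the paired scaffold proteins of the same particle. Nop58 read 1127 and 1179 in blood and 1449 and 1342 in spleen, without overlap, and its difference of 0.27 ± 0.11 had the smallest adjusted p of the 39 genes, 0.415. Nop56 read 2746 and 2977 in blood and 2752 and 2991 in spleen. These values split by mouse and not by tissue, and the tissue difference was 0.005 ± 0.12, turning to -0.06 with quantile normalization. The other Nop56 probe set, with a mean intensity of 1727, read 1594 and 1608 in blood and 1653 and 2053 in spleen. That probe set did not overlap between tissues and differed by 0.20.

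Box H/ACA small nucleolar RNPs guide the conversion of uridine to pseudouridine. All 4 core genes and Nolc1, the chaperone that shuttles such particles, had a positive difference in each mouse, beside 38.5% of all tested genes. Their median difference was 0.15. With quantile normalization 3 of the 5 were higher in both mice and 0 lower, beside 3990 and 3553 of all 11614 tested genes. The median was then 0.06. Leaving out an array moved the median of 0.15 to 0.07 without spleen replicate 2, 0.24 without spleen replicate 1 and 0.22 without blood replicate 2. Dkc1, dyskerin, is the pseudouridine synthase and is altered in dyskeratosis congenita. It read 1942 and 2006 in blood and 2219 and 2153 in spleen, without overlap, and differed by 0.15 ± 0.11 (adjusted p = 0.620). Gar1, a core protein at the catalytic site, read 1745 and 1994 in blood and 2081 and 2327 in spleen. Spleen was above blood by 0.25 and 0.22 in mice 1 and 2, and mouse 2 was above mouse 1 by 0.19 in blood and 0.16 in spleen. The fitted tissue difference was 0.24 ± 0.13 (adjusted p = 0.505). Nhp2, Nop10 and Nolc1 differed by 0.21 ± 0.14, 0.11 ± 0.13 and 0.11 ± 0.14.

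Of the measured genes, 6 hold annotated small nucleolar RNA genes inside their own bounds in the RefSeq gene table of GRCm38.p6, 18 such genes in all. Nop56 holds 5, Nop58 4, Wdr43 3, Gnl3 3, Ncl 2 and Dkc1 1. Among 11597 tested genes found there, 251 hold at least 1, or 2.16%. Fitted differences of the 6 hosts ran from 0.005 for Nop56 to 0.28 for Wdr43. The arrays give the host transcripts, not the small nucleolar RNAs.

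Factors of the small subunit processome and of 40S assembly formed the largest role, with 13 genes. Of these 5 were higher in spleen in both mice, 2 were lower in both and 6 differed between the mice. Their median difference was 0.02, and it was -0.05 with quantile normalization, under which 4 were higher in both mice and 5 lower. It lay between -0.05, without blood replicate 1, and 0.13, without blood replicate 2, and was -0.004 without spleen replicate 2 and 0.09 without spleen replicate 1. Imp3 and Imp4 bind the U3 small nucleolar RNA with the precursor. Imp3 read 1153 and 1172 in blood and 1401 and 1376 in spleen, so both spleen arrays stood above both blood arrays, by 0.28 and 0.23 in mice 1 and 2. The fitted difference was 0.25 ± 0.11 (adjusted p = 0.421). Imp4 read 544 and 575 in blood and 642 and 671 in spleen, without overlap, and differed by 0.23 ± 0.11 (adjusted p = 0.469). A dimmer Imp4 probe set, with a mean intensity of 202, differed by 0.10.

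Wdr43, the mouse counterpart of yeast Utp5, acts in early processing of the precursor. Its brightest probe set gave 1780.1 and 1491 in blood and 2079 and 1896 in spleen, spleen of mouse 1 being highest, and differed by 0.28 ± 0.14 (adjusted p = 0.456). That probe set carries the suffix s, which marks possible shared sequence with other transcripts, and the other Wdr43 probe set, without it, differed by -0.02. Ddx10, an RNA helicase, and Utp18 were also higher in spleen in both mice, by 0.21 ± 0.11 and 0.15 ± 0.12. Lower in both mice were Bysl and Rrp12. Bysl, bystin, joins late nuclear precursors of the small subunit. It read 703 and 745 in blood and 672 and 647 in spleen, without overlap, and its difference of -0.13 ± 0.11 (adjusted p = 0.663) was the lowest of the 39, while a dimmer probe set, with a mean intensity of 297, gave 0.10. Rrp12, a factor in export of precursors, read 257 and 275 in blood and 252 and 247 in spleen, without overlap, and differed by -0.09 ± 0.11.

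The 6 small subunit genes that differed in direction between the mice were Rrp9, Utp20, Nop14, Heatr1, Ltv1 and Nob1. Rrp9, a U3 RNP protein, had differences of -0.15 in mouse 1 and 0.29 in mouse 2. Utp20 went the other way, with 0.16 and -0.27. Nop14, a processome scaffold protein, read 955 and 1254 in blood and 1047 and 1166 in spleen. Blood of mouse 2 was its highest array, and mouse 2 exceeded mouse 1 in both tissues. Its tissue difference was 0.01 ± 0.16, and turned to -0.05 with quantile normalization. Heatr1, Ltv1 and Nob1, the endonuclease that makes the final cut of the small subunit RNA, had fitted differences of 0.02, 0.01 and -0.09.

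Large subunit assembly was covered by 9 measured genes. Of these 3 were higher in spleen in both mice, 1 was lower and 5 differed between the mice, with a median difference of 0.06. With quantile normalization 1 was higher in both mice and 3 were lower, with a median of -0.03. The median was -0.06 without blood replicate 1, 0.01 without spleen replicate 2 and 0.02 without spleen replicate 1. Pes1, Bop1 and Wdr12 form one complex that processes the precursor of the large subunit RNAs. Wdr12 had the highest fitted difference of the 39 genes. It read 800.0 and 982 in blood and 1072 and 1120.0 in spleen, so blood of mouse 1 was the low array and the tissues did not overlap. Within mice the difference was 0.42 and 0.19, and the fit gave 0.30 ± 0.14 (adjusted p = 0.439). Without blood replicate 1 it was 0.16. Its partner Pes1 differed by 0.05 and 0.26 in mice 1 and 2, and Bop1 by -0.01 and 0.21.

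Ebna1bp2, a partner of early large subunit particles, was the gene of this role lower in both mice. It read 1059 and 1084 in blood and 1052 and 1019 in spleen, and the difference was -0.05 ± 0.11, while a dimmer probe set, with a mean intensity of 526, gave 0.11. Rrs1, which brings the 5S RNA particle to the precursor, had differences of 0.13 and 0.02 in mice 1 and 2. Gnl3, nucleostemin, a nucleolar GTPase of proliferating and stem cells, had 0.21 and -0.09. Nop2, an RNA methyltransferase, had 0.07 and -0.20, and Wdr74 had 0.06 and -0.10. Nop16 read 332 and 395 in blood and 282 and 405 in spleen. Spleen of mouse 1 was low and both arrays of mouse 2 were high, and the tissue difference was -0.09 ± 0.19.

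Ddx21 is a nucleolar RNA helicase that takes part in transcription by RNA polymerases I and II and in processing. It read 1785 and 1734 in blood and 2053 and 2058 in spleen. The 2 arrays of each tissue lay close together and the tissues did not overlap, with a difference of 0.22 ± 0.11 (adjusted p = 0.466). A dimmer Ddx21 probe set, with a mean intensity of 518, differed by 0.04.

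Other gene lists moved with tissue on the same arrays. Of 15 listed mitosis genes, 14 were tested, and all 14 had a positive difference in each mouse, with a median of 0.83, beside 0.11 for the 39 ribosome biogenesis genes. The lowest of the 14, Top2a at 0.52, lay above the highest of the 39, Wdr12 at 0.30. The summed intensity of the 14 was 11024 and 11528 in blood and 17849 and 20170.0 in spleen. Of 12 immediate early genes, the rapid targets of growth signals and cell stress, 9 were tested and all 9 had a negative difference in each mouse, with a median of -1.37. The summed intensity of all 12 was 10519 and 12360.0 in blood and 5461 and 3908 in spleen. None of these genes passed the test with limma, both lists were chosen with their differences known, and their part in the values of the ribosome biogenesis genes was not tested.

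**Figure D3:**
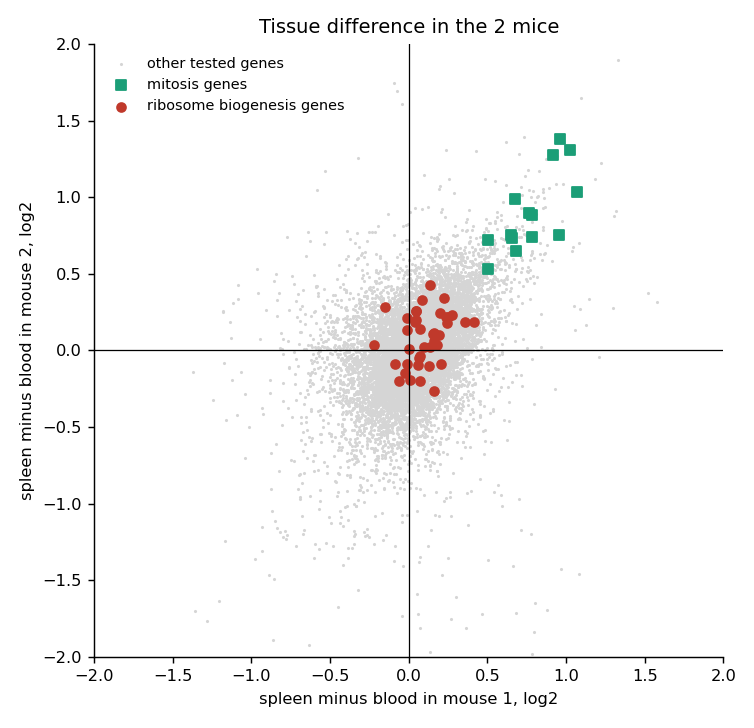
Spleen minus blood in mouse 1 (x axis) against mouse 2 (y axis), both log2, for the 39 ribosome biogenesis genes (red), 14 mitosis genes (green squares) and the other tested genes (grey). The axes end at 2, which leaves 46 tested genes out of view; the red points lie around the origin and the green squares above and to the right of them.

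Probe sets of a gene did not always give the same difference. Of 77 probe sets of the members, 67 reached the filter, and 28 of these were second or further probe sets of 22 genes. Of these 28, 20 had the direction of the brightest one, and 15 had a higher difference than it. Spleen exceeded blood in both mice for 42 of the 67 and lay below it for 5, beside 39.9% and 25.2% of the 18972 probe sets of all genes at that brightness. Their median was 0.11, beside 0.03. Probe sets of a gene share its transcripts and are no replicates. Ncl had 4 probe sets above the filter. Their mean differences were 0.11 for the brightest, with an intensity of 6096, and -0.11, 0.51 and 0.42 for those at 3693, 2564 and 708. Nolc1 differed by 0.11, 0.22 and 0.48 over its 3 probe sets, Dkc1 by 0.15, 0.35 and 0.35, and Fbl by 0.13 and 0.35. With the mean of all probe sets the box C/D median went from 0.13 to 0.24, the box H/ACA median from 0.15 to 0.25, and the median of all 39 from 0.11 to 0.09. Among the probe sets used, 6 carry the suffix s and 1, that of Rrs1, the suffix x. Npm1 is also known to have many processed pseudogenes, so its values are uncertain in this respect.

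**Figure D4:**
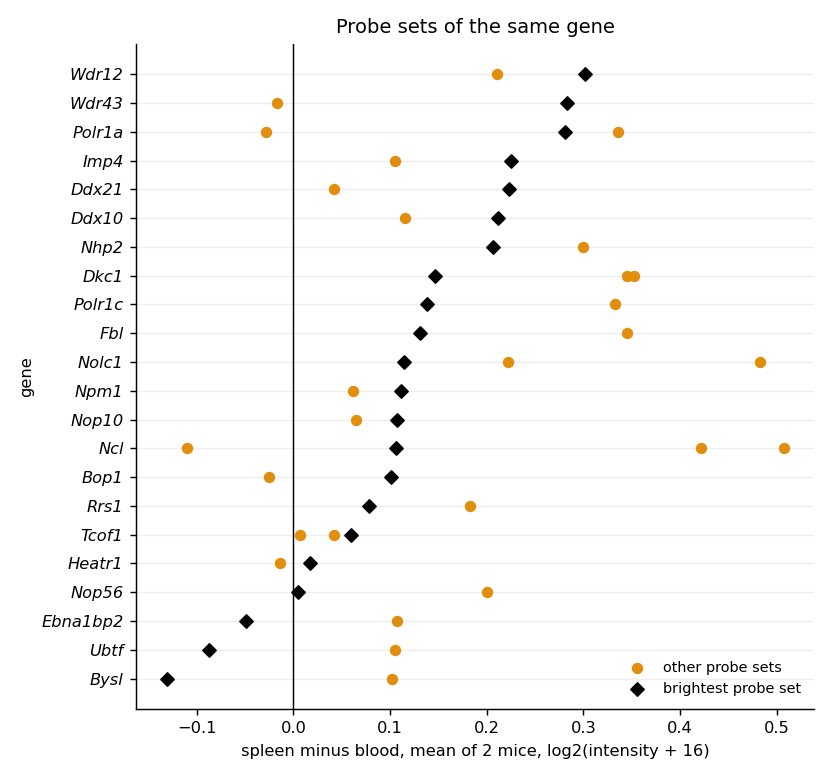
Spleen minus blood, averaged over the 2 mice, for every probe set above the filter of the 22 genes with more than 1 (black diamonds for the brightest, orange circles for the others). Of the 28 orange points, 15 lie to the right of their gene's diamond, and 2 of the 3 for Ncl lie at 0.42 and 0.51.

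Some of these genes also differed between the mice. With 1 animal per side there is no test. In both tissues 17 of the 39 genes were higher in mouse 2, beside 27.4% of all tested genes, and 6 were lower, beside 30.7%. The median difference of mouse 2 minus mouse 1 was 0.08 in blood and 0.02 in spleen. Nop16, given above, had the largest such difference by the smaller of its 2 values, 0.24 in blood and 0.50 in spleen. Polr1a followed with 0.19 and 0.48, Gar1 with 0.19 and 0.16, and Nop14 with 0.39 and 0.15. The 2 other Polr1a probe sets above the filter were higher in mouse 2 in spleen only. In blood they read 216 and 201, and 216 and 185, in mice 1 and 2. Spleen of mouse 2 was the highest array for 17 of the 39 genes, blood of mouse 2 for 12, spleen of mouse 1 for 9 and blood of mouse 1 for 1. Over all 11614 tested genes these counts were 2904, 3126, 3804 and 1780 in the same order.

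A wider list, also chosen with earlier results known, held 136 other genes of the pathway, of which 132 were matched and 131 tested. With limma 0 were called, and 8 were higher and 0 lower in spleen at an unadjusted p under 0.05 of the 131, beside 8.12% and 4.31% of all tested genes. Spleen exceeded blood in both mice for 70 and lay below it for 15, beside 38.5% and 25.1% of all tested genes, with a median difference of 0.07, beside 0.03. With quantile normalization the median was 0.01, and it was 0.03 without blood replicate 1 and 0.105 without blood replicate 2. The counts of the subgroups that follow stand against the same shares of all tested genes, and with so few genes none was set apart from them by a test. Other subunits and factors of RNA polymerase I had 5 of 11 higher in both mice and 3 lower, with a median of 0.05. Among the polymerase subunits, Polr1d differed by 0.05, Polr1e by -0.14, Polr1f by 0.25, Polr1g by -0.14 and Polr1h by 0.08; the last 3 stand in the files under their older symbols Twistnb, Cd3eap and Znrd1. The 54 further large subunit factors had 29 higher and 8 lower of 52 tested, and the 49 further small subunit factors had 25 higher and 2 lower of 46. Small nucleolar RNP assembly factors had 5 higher and 0 lower of 8. The exosome trims ribosomal RNA ends, and its subunits, listed together with Xrn2, C1d and Mphosph6, had 6 higher and 2 lower of 14.

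Highest among these by the smaller within-mouse difference was Naf1, an assembly factor of box H/ACA particles. It read 833 and 834 in blood and 1140 and 1059 in spleen, with no overlap, and differed by 0.39 ± 0.11 (SE; adjusted p = 0.305). Nol11, a processome protein, differed by 0.37 ± 0.11, the RNA methyltransferase Rrp8 by 0.40 ± 0.12 and the helicase Ddx52 by 0.35 ± 0.11. At the other end were the exosome subunit Exosc4 at -0.30 ± 0.17, Baz2a, a subunit of the complex that silences ribosomal DNA, at -0.24 ± 0.11, Rrp36 at -0.20 ± 0.13 and Polr1e at -0.14 ± 0.12. None of these 8 passed the test, with adjusted p-values from 0.305 to 0.669.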

How the data were processed

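The authors deposited linear intensities of probe sets from 1 Affymetrix array per sample, with some below 0 (1.60 to 2.17% per array). Per the labels' protocols, total RNA was extracted with Trizol and labelled with biotin. The sources used here do not state how the authors summarised probes, corrected background or scaled the arrays. Of 45101 probe sets, 34945 were paired with 1 gene, 932 with several and 64 were controls, from GEO's platform annotation, with 34741 symbols updated by Entrez identifier through the RefSeq table of GRCm38.p6. Values below 0 were set to 0 and log2(intensity + 16) was fitted with limma 3.58.1 in R 4.3.3 (tissue as the factor, eBayes, Benjamini-Hochberg adjustment) on 11614 genes. The mean of these genes on the log2 scale reached the median of all probe sets, which equals an intensity of 106. The 2 arrays per tissue come from different mice.

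Replicate numbers name mice, so they pair blood and spleen of an animal. The difference of mouse 2 minus mouse 1 correlated between tissues with r = 0.10 across genes, which are not independent replicates. The same steps, tested on simulated data for 11614 genes, recovered 76.8% of 2-fold and 98.9% of 4-fold changes, with 5.88% wrong calls. Both fold sizes were planted together, with independent spread drawn from the fitted prior, so these rates need not hold for the real arrays. On the real arrays 0 genes were called, though 0.164% of tested genes differed at least 2-fold with the same sign in each mouse.

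Members and lists were chosen with earlier results of these data known. Named members were the 6 highest and up to 6 lowest by the smaller within-mouse difference among those with 1 direction in both mice, the 6 of RNA polymerase I, Ncl, Npm1, Fbl, Nop56, Nop58 and Dkc1, and the 4 with the largest smaller difference between mice. Other members appear with their role. Of the wider list, 4 genes (Nom1, Snu13, Npm3, Cebpz) were not matched and are not analysed here. Alternatives were an offset of 4 or 64, a filter of 326, no filter, quantile normalization, median centring, the mean of all probe sets, a trended prior, the mouse as a block and leaving out each array. Probe sets without the suffixes s and x were an alternative chosen after seeing the data.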

Additional observations from a re-analysis of the deposited data

How the results depend on the processing

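With limma 0 members were called under each of the 14 alternatives, of 37 tested with the stricter filter, which left out Polr1b and Rrp12, and of 39 tested under the other 13, with the smallest adjusted p of a member between 0.27 and 0.847. Over all genes, 40 were called with the stricter filter, 45 with a trended prior, and between 0 and 20 with an array left out, 20 of them without spleen replicate 1. With an array left out a tissue has 1 array, whose spread is assumed to be that of the other tissue's 2 arrays, so these calls and the ends of the adjusted p range, which both come from such fits, rest on 2 arrays for the spread. With the mouse as a replicate block 0 genes and 0 members were called, the median difference of the members was 0.106 and their smallest adjusted p was 0.31; the block changed no call. At an unadjusted p under 0.05, between 0 and 4 members were higher in spleen and 0 lower.

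The median difference of the members was 0.061 with quantile normalization, 0.15 with centred arrays, 0.087 with the mean of all probe sets, and between 0.048 and 0.146 with an array left out. With quantile normalization 15 members were higher and 10 lower in both mice, and with centred arrays 2 were lower. These counts have no value when an array is left out. Of 320 values of named members under the alternatives, 307 kept their direction and 13, in 7 members, did not. With quantile normalization Nop56 was at -0.06 and Nop14 at -0.054, with the mean of probe sets Ubtf was at 0.008, and without the suffixes s and x Wdr43 was at -0.017. With an array left out Tcof1 ranged from -0.054 to 0.173, Nop56 from -0.055 to 0.065, Nop14 from -0.18 to 0.207, Nop16 from -0.342 to 0.153 and Polr1b from -0.016 to 0.139. The cause was not tested. No measure of background was used here, so what signal over background limits was not tested.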
